A study of Homo sapiens with 6 samples.

Results

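The IFIT and OAS genes are families of antiviral effectors that cells switch on in response to interferon. The 8 genes described here, IFIT1, IFIT2, IFIT3, IFIT5, OAS1, OAS2, OAS3 and OASL, were chosen by symbol from the 50229 gene symbols of the deposited table, and each had 1 row in it. Their messenger RNA was measured in 6 libraries of poly(A)-selected RNA from cells that the labels call Hep3B, a line derived from a human liver carcinoma. In 3 libraries the cells had received 50 nM of a small interfering RNA against the translation initiation factor EIF4G2 (siEIF4G2), and in the other 3 the small interfering RNA was a control (siNC), also at 50 nM. Cells of both groups were therefore exposed to a small interfering RNA, and cells given none are not analysed here. The replicates are numbered, but nothing in the labels states separate cultures. The p-values therefore speak of the spread among these 6 libraries alone, and that spread may be technical.

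IFIT proteins are built from tetratricopeptide repeats and bind RNA whose 5′ end lacks the marks of a host messenger RNA, which blocks its translation. OAS enzymes are activated by double-stranded RNA and make 2-5A, short chains of 2′-5′-linked adenylate that act as a second messenger and lead to the cleavage of RNA. Transcription of both families is driven largely by a complex that includes STAT2 and IRF9, and by other IRF proteins, through interferon-stimulated response elements near the start of the gene.

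The libraries held 63351653 to 72863628 counts, and TMM scaling factors between 0.985 and 1.02. EIF4G2 itself read 17.9, 17.6 and 20.05 FPKM (fragments scaled for transcript length and library size) in siEIF4G2 replicates 1, 2 and 3, against 107, 89.4 and 97.8 FPKM in siNC replicates 1, 2 and 3. The labelled cell type was not borne out by its markers. Of 11 hepatocyte markers, 11 had a mean under 1 CPM (counts scaled for library size only) and 7 were listed at 0 counts in all 6 libraries, among them ALB and AFP. Of 6 leukocyte markers, 6 were under 1 CPM and PTPRC and CD3E were among those at 0 throughout. The 5 stromal markers summed to 274 to 309 CPM in siEIF4G2 and 249 to 282 CPM in siNC. Among them COL1A2 had a mean of only 0.84 CPM over the 6 libraries, beside 86.2 CPM for COL1A1. The 4 endothelial markers summed to 3.33 to 4.12 CPM in siEIF4G2 and 10.1 to 10.9 CPM in siNC, with KDR at 0 in 5 of the 6 libraries. The endothelial sum is mostly CDH5, with 206, 195 and 234 counts in siEIF4G2 against 677, 625 and 636 in siNC. VWF was also lower, with 19, 19 and 16 counts in siEIF4G2 against 57, 36 and 34 in siNC, whereas PECAM1 overlapped between groups. Stromal members differed in direction: PDGFRB had 642 to 838 counts in siEIF4G2 against 1616 to 1811 in siNC, and LUM 9271 to 9813 in siEIF4G2 against 6350 to 8109 in siNC. The 4 adipocyte markers summed to 0 CPM in siEIF4G2 and 0.18 to 0.21 CPM in siNC. The part of these differences in the results below was not tested.

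All 8 genes were lower after EIF4G2 silencing, and in each of them every siEIF4G2 library lay below every siNC library. The falls ranged from 1.36-fold for OASL to 2.95-fold for OAS2. All 8 passed the filter of at least 0.5 FPKM in at least 3 libraries and were called lower by edgeR (adjusted p under 0.05), beside a background of 17.6% of the 13748 tested genes called lower, 15.9% called higher and 33.4% called in either direction. The median log2 fold change was -0.96 over the 8 genes and 0.007 over all tested genes. Groups without overlap and with siEIF4G2 below were found for 25.6% of tested genes. For each of the 8 genes taken alone, the exact two-sided permutation p was 0.1, and no smaller value can be reached with 3 libraries in each group. In bulk RNA, fewer cells expressing a gene and less of its RNA per cell cannot be told apart.

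**Figure D1:**
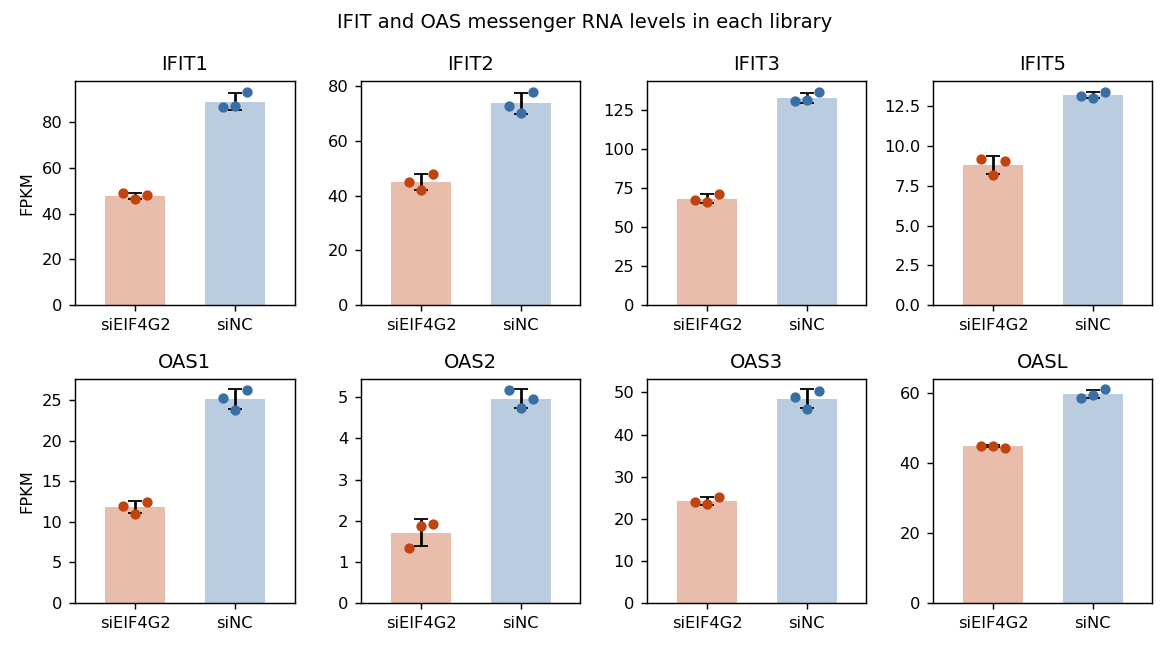
FPKM of each IFIT and OAS gene in each library, with siEIF4G2 left of siNC in every panel; points are libraries, bars the mean and error bars the SD (n = 3 per group). No panel shows an overlap between the groups, and as a ratio OASL has the closest groups, at 44.4 to 44.9 FPKM in siEIF4G2 and 58.7 to 61.0 FPKM in siNC.

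Of the IFIT genes, IFIT3 and IFIT1 fell the most. IFIT3 binds IFIT1, stabilises it and sharpens its grip on RNA. It read 67.4, 65.9 and 71.4 FPKM in siEIF4G2 replicates 1, 2 and 3, against 131, 131 and 137 FPKM in siNC replicates 1, 2 and 3. Its log2 fold change was -0.99 (SE 0.04; edgeR adjusted p = 0.000207). The spread within each group was small beside this gap, with a coefficient of variation of 4.13% in siEIF4G2 and 2.54% in siNC. IFIT1 recognises capped RNA without 2′-O methylation. It read 48.9, 46.5 and 48.1 FPKM in siEIF4G2, against 86.6, 87.1 and 93.3 FPKM in siNC, and its log2 fold change was -0.92 (SE 0.04; edgeR adjusted p = 0.000219).

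IFIT2 and IFIT5 fell by less. IFIT2, which forms complexes with the other IFIT proteins and has been tied to cell death, read 44.8, 42.2 and 47.9 FPKM in siEIF4G2, against 72.7, 70.15 and 77.9 FPKM in siNC. Its log2 fold change was -0.74 (SE 0.06; edgeR adjusted p = 0.000638). IFIT5 binds RNA with a 5′ triphosphate and acts as a monomer. It had the lowest level of the family, 9.20, 8.18 and 9.09 FPKM in siEIF4G2 against 13.2, 13.0 and 13.4 FPKM in siNC, and its log2 fold change was -0.61 (SE 0.05; edgeR adjusted p = 0.000855). Summed over the 4 IFIT genes, the level was 170.3, 162.8 and 176.4 FPKM in siEIF4G2 against 303.4, 301.6 and 321.5 FPKM in siNC.

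OAS1, OAS3 and OAS2 were each more than 2-fold lower, a size of fall called in 2.59% of tested genes. Across the alternative settings listed at the end, OAS3 ran from -1.07 to -0.97 on the log2 scale and IFIT3 from -1.02 to -0.95. Both ranges span the 2-fold cut, so it does not firmly separate these genes. OAS1, which carries a single synthetase unit, read 11.9, 11.0 and 12.5 FPKM in siEIF4G2, against 25.3, 23.8 and 26.2 FPKM in siNC. Its log2 fold change was -1.12 (SE 0.06; edgeR adjusted p = 0.000263). OAS3, the largest of the enzymes and the one most responsive to long double-stranded RNA, read 24.0, 23.4 and 25.2 FPKM in siEIF4G2, against 49.0, 46.1 and 50.5 FPKM in siNC. Its log2 fold change was -1.03 (SE 0.05; edgeR adjusted p = 0.000219).

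OAS2, which carries tandem synthetase units and forms a dimer, had both the lowest level and the largest fall. It read 1.34, 1.86 and 1.93 FPKM in siEIF4G2 replicates 1, 2 and 3, against 5.19, 4.73 and 4.97 FPKM in siNC replicates 1, 2 and 3. Replicate 1 was the lowest of the siEIF4G2 libraries, and the coefficient of variation was 18.9% in siEIF4G2 and 4.62% in siNC. The log2 fold change was -1.56 (SE 0.15; edgeR adjusted p = 0.00114), the 107th largest fall among the 13748 tested genes. It rests on 734 to 926 counts per library in siEIF4G2 and 2392 to 2697 in siNC, the fewest of the 8 genes within each group.

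OASL lacks the synthetase activity of its relatives and carries ubiquitin-like domains, through which it is known to strengthen signalling by the RNA sensor DDX58 (RIG-I). It read 44.9, 44.9 and 44.4 FPKM in siEIF4G2, against 58.7, 59.4 and 61.0 FPKM in siNC. The log2 fold change was -0.44 (SE 0.04; edgeR adjusted p = 0.000775), the 2043rd largest fall. This was the smallest change of the 8 genes, and in FPKM its siEIF4G2 libraries were the tightest (coefficient of variation 0.685%). In CPM those of IFIT1 were tighter for their level, at 261.3 ± 3.27 CPM beside 186.3 ± 3.79 CPM for OASL (SD).

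**Figure D2:**
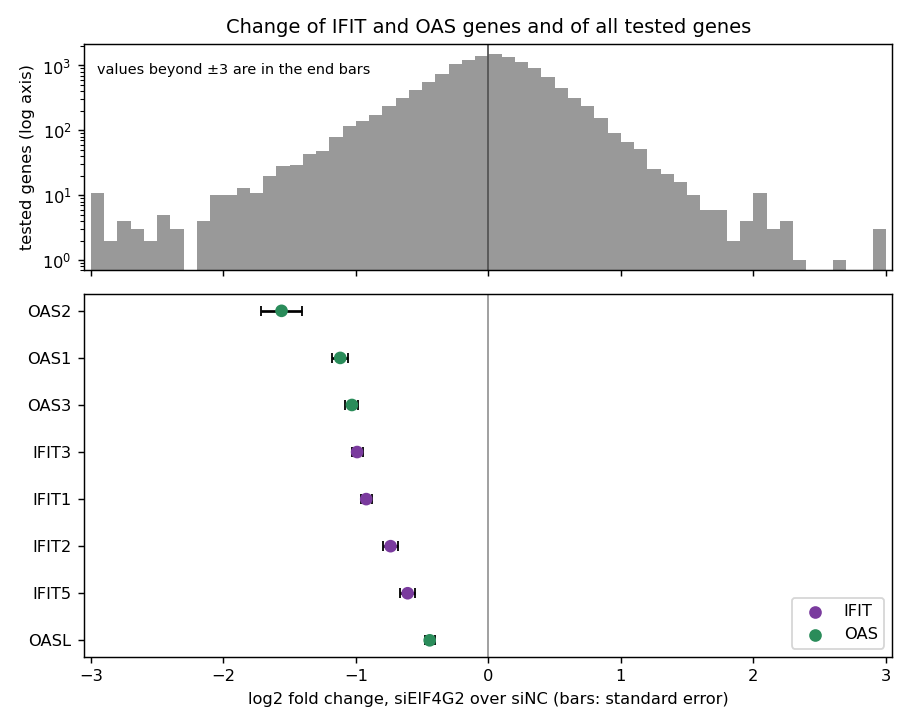
Upper panel, the number of tested genes by log2 fold change (siEIF4G2 over siNC; log axis for the number of genes); lower panel, the IFIT and OAS genes on the same horizontal axis with their standard errors. The 8 genes lie between -1.56 (OAS2) and -0.44 (OASL).

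Mean FPKM, which corrects for length, ranked the 8 genes in the same order in both groups. From high to low it was IFIT3, IFIT1, IFIT2, OASL, OAS3, OAS1, IFIT5 and OAS2. The means of IFIT2 and OASL were nearly tied in siEIF4G2, at 44.96 and 44.73 FPKM. There OASL was above IFIT2 in replicate 1 (44.87 against 44.79 FPKM) and replicate 2 (44.93 against 42.19 FPKM), and below it in replicate 3. In siEIF4G2 the library range of IFIT2 (42.2 to 47.9 FPKM) overlapped those of IFIT1 (46.5 to 48.9 FPKM) and OASL (44.4 to 44.9 FPKM), which were separate from each other. In siNC all neighbours in the order had separate ranges. OASL made up 54.3 ± 1.29% of the summed FPKM of the 4 OAS genes in siEIF4G2 and 43.2 ± 0.98% in siNC (SD, n = 3 each). OAS2 made up 2.07 ± 0.38% in siEIF4G2 and 3.59 ± 0.15% in siNC. Within the IFIT family, IFIT3 made up 40.2 ± 0.52% in siEIF4G2 and 43.1 ± 0.48% in siNC, and IFIT2 26.45 ± 0.62% in siEIF4G2 and 23.8 ± 0.50% in siNC. IFIT1 held 28.2 ± 0.80% in siEIF4G2 and 28.8 ± 0.24% in siNC, with overlapping groups.

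Whether members of a family changed by different amounts was examined with the log2 ratio of their CPM in each library, in which scaling between libraries cancels. The ratio of OASL to OAS3 was -0.31, -0.27 and -0.40 in siEIF4G2 replicates 1, 2 and 3, against -0.95, -0.85 and -0.94 in siNC replicates 1, 2 and 3, a difference of 0.59. OASL thus kept more of its level than OAS3 in every siEIF4G2 library. The ratio of OAS2 to OAS3 was -4.54, -4.03 and -4.09 in siEIF4G2 against -3.62, -3.67 and -3.72 in siNC, a difference of -0.55. It was -0.39 without siEIF4G2 replicate 1, and -0.17 with 1 FPKM added to each value. With that addition the groups were no longer fully separate (exact two-sided permutation p = 0.2).

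The other ratios shifted by smaller amounts. Against IFIT1, IFIT5 shifted by 0.31 and IFIT2 by 0.18, and OAS1 shifted by -0.09 against OAS3, each with no overlap between groups. IFIT3 against IFIT1 shifted by -0.07, and its groups overlapped. The exact two-sided permutation test gave p = 0.1 for the 5 ratios without overlap, the smallest value possible, and p = 0.2 for IFIT3 to IFIT1. Adjusted over the 6 ratios these were 0.12 and 0.2, so none passed, and this exact test cannot pass with 3 libraries in each group.

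**Figure D3:**
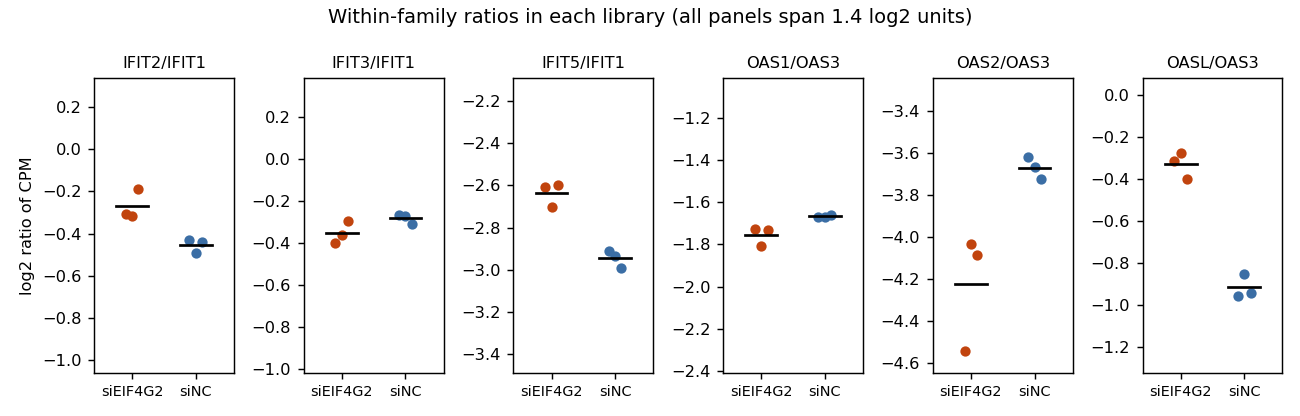
Log2 ratio of CPM of each gene to IFIT1 or OAS3 in each library, with siEIF4G2 left of siNC; points are libraries and lines group means, and every panel spans the same number of log2 units. The groups are farthest apart for OASL/OAS3 (means -0.33 in siEIF4G2 and -0.91 in siNC) and OAS2/OAS3 (-4.22 in siEIF4G2 and -3.67 in siNC), and overlap only for IFIT3/IFIT1.

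The genes lie in 3 places of the genome, in GRCh38 coordinates. IFIT2, IFIT3, IFIT1 and IFIT5 follow one another on the plus strand of chromosome 10 over 137.3 kb. IFIT2 (ENSG00000119922) spans chr10:89283694-89309271, IFIT3 (ENSG00000119917) chr10:89327997-89340971, IFIT1 (ENSG00000185745) chr10:89392546-89406487 and IFIT5 (ENSG00000152778) chr10:89414568-89420997. OAS1, OAS3 and OAS2 follow one another on the plus strand of chromosome 12 over 104.9 kb. OAS1 (ENSG00000089127) spans chr12:112906783-112932142, OAS3 (ENSG00000111331) chr12:112938444-112968054 and OAS2 (ENSG00000111335) chr12:112978395-113011723. OASL (ENSG00000135114) lies 8.01 Mb from OAS2 on the minus strand, at chr12:121019111-121039242.

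The interval of LIPA, the lysosomal acid lipase, covers 201 kb of the minus strand (chr10:89213569-89414557) and contains IFIT2, IFIT3 and IFIT1 entirely. LIPA read 17.0, 17.5 and 16.8 FPKM in siEIF4G2 replicates 1, 2 and 3, against 28.4, 28.7 and 30.25 FPKM in siNC replicates 1, 2 and 3. Its log2 fold change was -0.80 (SE 0.05; edgeR adjusted p = 0.000355). No source says whether counting used strand, so reads of LIPA and of these 3 IFIT genes may not be told apart. IFIT5 starts 10 bases beyond the end of LIPA, overlaps no tested gene and was also lower. IFIT1B and IFIT6P, a relative and a pseudogene inside the cluster, were listed at 0 counts in all 6 libraries, and AL353751, which overlaps IFIT2, had at most 82 counts.

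No tested gene overlaps the intervals of the 4 OAS genes. The antisense gene AC004551, which runs across OAS1, OAS3 and OAS2, was listed at 0 counts in all 6 libraries.

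**Figure D4:**
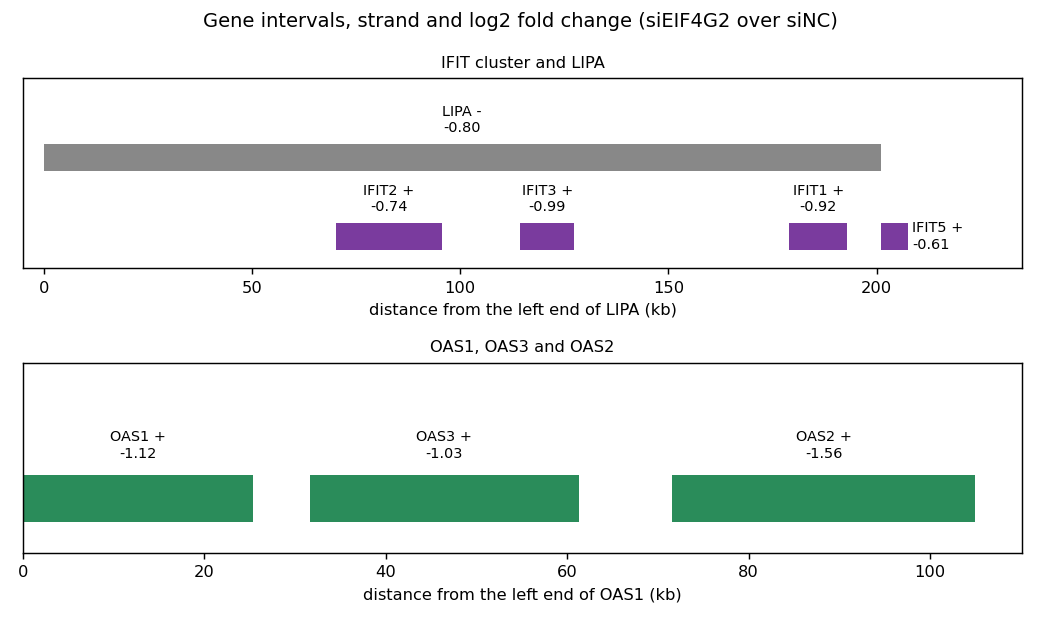
Gene intervals to scale at the IFIT cluster (upper panel) and at OAS1, OAS3 and OAS2 (lower panel), as distance in kb from the left end of LIPA or OAS1, with each gene's strand and log2 fold change (siEIF4G2 over siNC). LIPA, at -0.80, runs across IFIT2, IFIT3 and IFIT1 on the other strand and ends just before IFIT5.

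Because the genes moved together, the bases before their starts were searched for the core of the interferon-stimulated response element, on both strands. The core was written as GAAA, any 2 bases, and GAAA again. Windows from 250 bases before to 50 bases after each start were taken from RefSeq (GRCh38.p14), which held windows for 5 of the 8 genes. IFIT2, OAS2 and OASL were not matched. Windows of IFIT1, IFIT3, IFIT5 and OAS3 held the core, as did 3.57% of all 35116 windows. The OAS1 window held none, but held GAAACGAAA, in which 1 base fewer separates the GAAA blocks. That form, with any 1 base between the blocks, was searched after this window had been seen, and was present in 3.12% of windows, those of IFIT3 and OAS3 included. Its match in IFIT3 overlaps the core at the downstream start, and its match in OAS3 overlaps the core at base -143.

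The 160 bases before each RefSeq start are printed 5′ to 3′ on the plus strand to show where the cores lie. RefSeq starts are not always those of the deposited intervals. The stretches of OAS1 and of the downstream IFIT3 start lie wholly inside the deposited intervals, and those of IFIT1 and OAS3 partly. Capitals mark the core on either strand and, for OAS1 alone, the form with 1 base between the blocks. The stretches are chr10:89392463-89392622 for IFIT1, chr10:89327837-89327996 and chr10:89332369-89332528 for the 2 RefSeq starts of IFIT3, chr10:89414408-89414567 for IFIT5, chr12:112906802-112906961 for OAS1 and chr12:112938314-112938473 for OAS3.
IFIT1: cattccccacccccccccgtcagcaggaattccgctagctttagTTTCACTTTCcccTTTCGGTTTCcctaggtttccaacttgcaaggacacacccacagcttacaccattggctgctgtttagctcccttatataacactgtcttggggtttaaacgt
IFIT3, upstream start: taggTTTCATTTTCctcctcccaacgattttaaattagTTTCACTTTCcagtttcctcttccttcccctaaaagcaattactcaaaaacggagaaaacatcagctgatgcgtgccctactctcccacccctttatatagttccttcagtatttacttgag
IFIT3, downstream start: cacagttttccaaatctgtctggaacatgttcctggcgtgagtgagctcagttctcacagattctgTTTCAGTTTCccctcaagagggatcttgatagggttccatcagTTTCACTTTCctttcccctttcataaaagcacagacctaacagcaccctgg
IFIT5: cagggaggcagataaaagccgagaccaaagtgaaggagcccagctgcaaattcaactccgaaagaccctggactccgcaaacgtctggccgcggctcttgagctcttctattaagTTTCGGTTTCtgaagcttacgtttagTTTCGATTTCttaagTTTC
OAS1: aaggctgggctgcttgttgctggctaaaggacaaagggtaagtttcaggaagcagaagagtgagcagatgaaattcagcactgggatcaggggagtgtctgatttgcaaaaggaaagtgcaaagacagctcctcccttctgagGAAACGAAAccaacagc
OAS3: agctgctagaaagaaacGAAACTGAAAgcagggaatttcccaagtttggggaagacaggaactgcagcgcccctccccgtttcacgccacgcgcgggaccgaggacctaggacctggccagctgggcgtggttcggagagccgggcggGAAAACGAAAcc

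In the IFIT1 stretch, TTTCACTTTC and TTTCGGTTTC begin 116 and 103 bases before the start, 3 bases apart. Both IFIT3 starts also have a pair, at 156 and 122 bases before the upstream start and at 94 and 51 bases before the downstream one. IFIT5 has matches at 45, 19 and 4 bases before its start, the last of which runs past it and is cut off in the print. OAS3 has matches at 143 and 12 bases before its start, in the GAAA orientation. TTTCACTTTC occurs at IFIT1 and at both starts of IFIT3, and TTTCGGTTTC at IFIT1 and IFIT5. A match describes letters in the window and does not show that a factor binds there.

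In the deposited annotation all 8 genes carry the term defense response to virus, as do 206 genes of the table, 134 of them tested. All but IFIT5 carry type I interferon signaling pathway, a term of 67 genes. IFIT1, IFIT5 and the 4 OAS genes share negative regulation of viral genome replication, a term of 41 genes.

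A list of OAS partners did not move as one. It held 2-5A pathway genes and also EIF2AK2 and ADAR, which bind double-stranded RNA but are not part of that pathway. Of its 7 genes, 6 were tested, of which 2 fell, 2 rose and 2 were not called, with a median log2 fold change of -0.03. Over all tested genes, 17.6% were called lower and 15.9% higher, and whether the list differs from that was not tested. ABCE1, a ribosome recycling factor also known to restrain this pathway, rose (18.8 ± 0.93 FPKM in siEIF4G2 against 15.2 ± 0.81 FPKM in siNC; log2 fold change 0.27, edgeR adjusted p = 0.014). EIF2AK2, the kinase PKR, fell (9.01 ± 0.93 FPKM in siEIF4G2 against 16.15 ± 0.40 FPKM in siNC; log2 fold change -0.87, edgeR adjusted p = 0.000708). CNP and AKAP7, both phosphodiesterases, moved in opposite directions, by -0.92 and 0.74 on the log2 scale (edgeR adjusted p = 0.0219 and 0.0358). PDE12, another phosphodiesterase of the list, was not called (log2 fold change 0.09, edgeR adjusted p = 0.266). The intervals of ABCE1, CNP and EIF2AK2 each overlap other tested genes. CNP missed the threshold without siEIF4G2 replicate 2 or 3 (adjusted p = 0.0643 and 0.0711), and AKAP7 on leaving out replicate 1 or replicate 3 of either group (0.0859 to 0.105). With the replicate number as a block CNP and AKAP7 both missed it (edgeR adjusted p = 0.0596 and 0.0874). AKAP7 also missed it with no filter on low values (edgeR adjusted p = 0.0572).

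Of the RNA sensors, which act upstream of interferon production, 3 of 4 tested genes fell and 0 rose, with a median log2 fold change of -0.87. The share called lower was 17.6% over all tested genes. DDX58, which senses 5′ triphosphate RNA, read 11.85 ± 0.90 FPKM in siEIF4G2 and 22.7 ± 1.65 FPKM in siNC (SD, n = 3 each). IFIH1, the sensor of long double-stranded RNA, read 11.9 ± 0.19 FPKM in siEIF4G2 and 19.95 ± 1.39 FPKM in siNC. DHX58, a regulator of both, read 0.708 ± 0.118 FPKM in siEIF4G2 and 1.81 ± 0.21 FPKM in siNC. The log2 fold changes of DDX58, IFIH1 and DHX58 were -0.97, -0.77 and -1.37 (edgeR adjusted p = 0.000629, 0.000602 and 0.00255). MAVS, the adaptor of these sensors, was not called (log2 fold change 0.20, edgeR adjusted p = 0.618), but without siNC replicate 3 it was called higher (0.61, adjusted p = 0.00936).

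Of 6 interferon ligand genes only IFNE passed the filter, on 49 to 82 counts per library in siEIF4G2 and 35 to 93 in siNC. Its interval overlaps that of MIR31HG, a tested gene, so reads of these genes may not be told apart. IFNE read 0.633, 0.412 and 0.520 FPKM in siEIF4G2 against 0.279, 0.781 and 0.360 FPKM in siNC, with overlapping groups. It was not called (log2 fold change 0.11, edgeR adjusted p = 0.865). IFNB1 had at most 4 counts in a siEIF4G2 library and 14 in a siNC library, IFNL1 at most 22 in siEIF4G2 and 7 in siNC, and IFNL2, IFNL3 and IFNK were listed at 0 throughout. With 0 counts seen, as many as 3 remain possible through counting error, which equals 0.0412 to 0.0474 CPM in these libraries.

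Of 6 receptor and kinase genes, 2 fell, 0 rose and 4 were not called, with a median of -0.20. Of all tested genes, 17.6% were called lower and 33.4% were called in either direction. JAK1 read 12.1 ± 0.65 FPKM in siEIF4G2 and 16.1 ± 0.05 FPKM in siNC, a log2 fold change of -0.44 (edgeR adjusted p = 0.00213). IL10RB was at -0.68 (edgeR adjusted p = 0.0403), a call lost on leaving out any library but siNC replicate 3 (adjusted p = 0.0645 to 0.109). IFNAR1 and IFNLR1 were not called (-0.18 and -0.15; edgeR adjusted p = 0.521 and 0.574). Of 8 transcription factor genes, 6 fell and 0 rose, with a median of -0.66. STAT2 read 4.96 ± 0.28 FPKM in siEIF4G2 and 10.65 ± 1.36 FPKM in siNC, and IRF7, a factor that amplifies interferon production, 5.71 ± 0.17 FPKM in siEIF4G2 and 10.7 ± 0.66 FPKM in siNC. Their log2 fold changes were -1.13 and -0.93 (edgeR adjusted p = 0.000793 and 0.000563). BATF2, a basic leucine zipper factor induced by interferon, was at -2.39 (edgeR adjusted p = 0.00223) from a low level of 0.119 ± 0.039 FPKM in siEIF4G2 and 0.631 ± 0.104 FPKM in siNC. IRF9, the DNA-binding partner of STAT2, was not called, at 5.61 ± 1.73 FPKM in siEIF4G2 and 6.93 ± 1.03 FPKM in siNC with overlapping groups (edgeR adjusted p = 0.367), and it was looked up after its value was seen.

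Of 4 tested negative regulators, 2 fell and 2 were not called, with a median of -0.46, beside 17.6% of all tested genes called lower. USP18, which removes ISG15 and restrains the interferon receptor, read 18.05 ± 0.92 FPKM in siEIF4G2 and 30.1 ± 0.85 FPKM in siNC (log2 fold change -0.77, edgeR adjusted p = 0.000442). ISG15, a ubiquitin-like protein that stabilises USP18, read 237 ± 8.08 FPKM in siEIF4G2 and 484.5 ± 15.3 FPKM in siNC (-1.06, edgeR adjusted p = 0.000219). SOCS3 and PIAS1 were at -0.16 and -0.15 (edgeR adjusted p = 0.102 and 0.25).

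Among other interferon-induced effectors, 20 of 23 tested genes fell and 0 rose, against 17.6% of all tested genes called lower. Their median was -0.86, beside the -0.96 of the IFIT and OAS genes. IFI6, an inhibitor of flavivirus replication, read 211 ± 3.42 FPKM in siEIF4G2 and 335 ± 6.24 FPKM in siNC (log2 fold change -0.69, edgeR adjusted p = 0.000289). DTX3L, a ubiquitin ligase that overlaps its partner PARP9, was at -0.86, HERC6 at -0.77 and SP110, a nuclear body protein, at -1.21 (edgeR adjusted p = 0.000362, 0.000389 and 0.000407). The changes of the called genes ran from -2.72 (TRIM22) to -0.24 (IFI44), so the IFIT and OAS genes lay inside this range. Both ends were picked by value, and TRIM22 overlaps TRIM5.

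IFIT1 reads the methylation of the messenger RNA cap, so the enzymes that build and methylate the cap were also listed. Of 5 such genes 1 fell, a share near the 17.6% of all tested genes called lower. It was CMTR1, which adds the 2′-O methyl mark (10.1 ± 0.38 FPKM in siEIF4G2 and 12.4 ± 0.28 FPKM in siNC; log2 fold change -0.32, edgeR adjusted p = 0.00363). RNGTT, RNMT and CMTR2 were at 0.09, -0.34 and 0.04 (edgeR adjusted p = 0.191, 0.0879 and 0.724), and RNMT was called under DESeq2 (adjusted p = 0.04996). RNMT overlaps FAM210A.

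**Figure D5:**
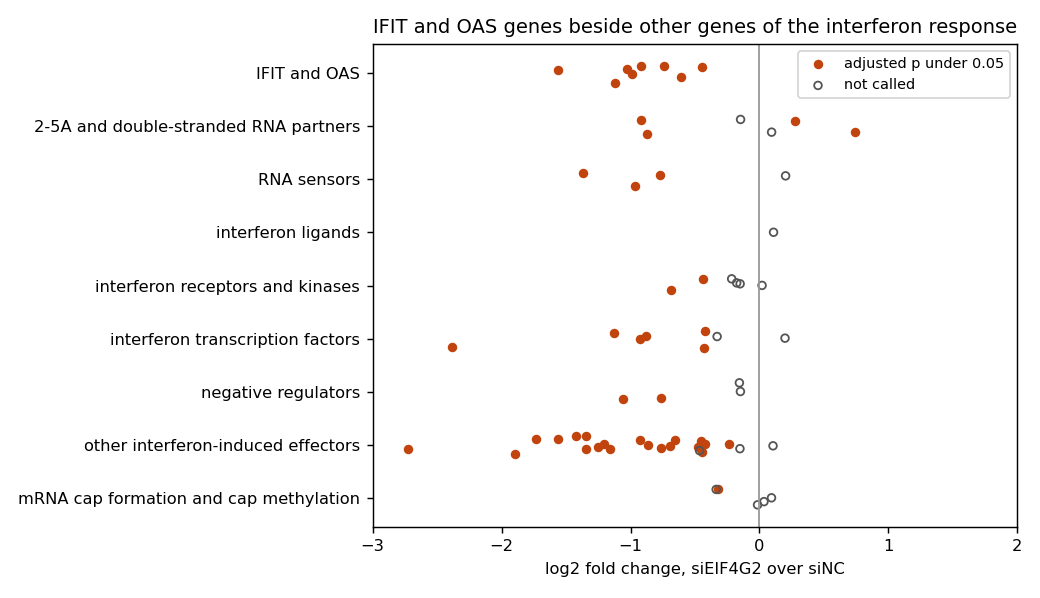
Log2 fold change (siEIF4G2 over siNC) of each tested gene, by list; filled points had an edgeR adjusted p under 0.05 and open points did not, and vertical scatter within a row carries no value. The IFIT and OAS row lies wholly below 0, whereas the row of 2-5A and double-stranded RNA partners has called genes on both sides.

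The tested genes whose profile over the 6 libraries was nearest to the mean profile of the 8 genes were ZKSCAN3, NEK7, FAM8A1, C15orf65 and ATP8B2. Nearness was the root-mean-square distance between log2 CPM values centred on each gene's own mean, and it was 0.0133, 0.0202, 0.0281, 0.0286 and 0.0363 for these genes. It was 0.508 for the median of 13740 ranked genes, and 0.035 (IFIT3) to 0.361 (OAS2) for the 8 genes themselves. NEK7, a protein kinase, read 5.20, 5.29 and 5.74 FPKM in siEIF4G2 against 10.1, 10.0 and 10.7 FPKM in siNC. With 6 libraries in 2 groups the distance mostly reads the size of the group difference and the tightness of the replicates. C15orf65 and ZKSCAN3 overlap other tested genes.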

How the data were processed

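Poly(A)-selected RNA of 6 libraries was sequenced in pairs on an Illumina instrument, per the labels' protocols, which also speak of an adipose type. StringTie 1.3.0 and HISAT2 2.0 are named, per the submitters' processing notes. No genome build, annotation or strand setting is given in the sources used here. Deposited by the authors was 1 table of 60612 genes with a count and an FPKM value per library, per the file headers, in which FPKM is listed as 0.0001 where the count is 0. The deposited counts are whole numbers but were treated as estimated counts already rounded, since only 17.2% of 93 low FPKM values, turned back into reads, came within 0.1 of a whole number. Intervals overlapped GENCODE 29 on GRCh38 for 99.98% of 58394 shared identifiers.

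Of rows sharing a symbol the one with the highest mean FPKM was kept. The 13748 genes that reached 0.5 FPKM in 3 or more libraries were tested with edgeR's quasi-likelihood test on the counts with TMM factors and the group as the only term. P-values are two-sided and Benjamini-Hochberg adjusted over all tested genes. Dividing the size of each log2 fold change by √F gave its standard error. The fit was tested on simulated counts. No pair of replicates agreed within sampling noise (chi-square per gene of at least 68.6). Alternatives were other scalings, filters and pseudocounts, DESeq2, limma on log2(FPKM + 1), summed rows, a replicate block and leaving out each library.

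The members and lists were chosen with earlier results of these data known. Named were the 8 genes, EIF4G2, up to 4 tested genes with the smallest p in each list, tested genes that overlap a member or lie within 100 kb, and the 5 nearest profiles, except for a few genes that are not reported here. Others were looked up after their values were seen. Fits used DESeq2 1.42.0, limma 3.58.1 and edgeR 4.0.16 in R 4.3.3, and the rest Python 3.11.15, numpy 2.4.6, pandas 2.3.3, scipy 1.17.1 and matplotlib 3.10.9. Limits from counts cover counting error alone, as no molecular identifiers are stated.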

Additional observations from a re-analysis of the deposited data

How the results depend on the processing

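The 8 IFIT and OAS genes were called lower under each of the 15 alternatives run, with adjusted p of at most 0.0112 (OAS2 with the replicate block). The log2 fold change of OAS2 ran from -1.65 to -1.14, the smallest size coming with 1 FPKM added, which by construction understates low genes, and that of OASL from -0.46 to -0.41. With library totals alone the median of all genes shifted by 0.0267.

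Over all genes, calls were 2415 lower and 2182 higher, against 2010 and 1726 with the replicate number as a block. Higher calls outnumbered lower ones with library totals alone (2223 lower, 2422 higher) and in limma with 1 FPKM added (2222 and 2419) or 0.1 FPKM added (2210 and 2422). Deviations of same-numbered libraries correlated at only 0.004, 0.034 and 0.052, not every library correlated best with its own number, and the numbers are not said to pair samples.

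Of 518 fits of the 35 named genes outside the families, 494 kept direction and side of the threshold. The uncalled genes IFNE and CMTR2 changed sign when single libraries were left out, with log2 fold changes from -0.15 to 0.65 and from -0.0031 to 0.069. The nearest 5 genes kept 4 with FPKM in place of CPM, an alternative chosen after seeing the data. OAS2, the lowest gene, has the least depth.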
